A study of Mus musculus with 6 samples.

Results

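RNA-sequencing counts of 10 genes of the goblet cell and secretory lineages were examined in the intestinal epithelium at embryonic day 13.5 (E13.5). Wild type embryos were compared with embryos in which *Tcf7l1* was deleted in the gut epithelium. The genes were chosen by symbol from the 23366 genes of the count tables, which hold all 10. They are the transcription factor genes *Atoh1*, *Gfi1*, *Spdef* and *Tox3*, the genes of the mucus proteins *Muc2*, *Fcgbp*, *Tff3* and *Zg16*, and *Agr2* and *Ern2*, whose products act in the endoplasmic reticulum (ER) where mucins fold. In the intestine, progenitors that escape Notch signalling switch on *Atoh1*, which commits them to the secretory fate. *Gfi1* and *Spdef* act downstream of it, and *Spdef* drives the maturation of goblet cells. Mature goblet cells load the gel-forming mucin MUC2 into granules, and AGR2, a disulphide isomerase, and the ER stress sensor IRE1-beta, encoded by *Ern2*, serve its folding.

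The 3 mutant libraries had the genotype *Shh*-cre-egfp:*Tcf7l1* lox/lox, in which Cre made from the *Shh* locus deletes exon 6 of *Tcf7l1* in gut epithelium, and the 3 control libraries were wild type. Both groups were untreated and of the same age, and each library came from 500 living EpCAM-positive cells of the small intestine, amplified for 15 PCR cycles. The sources do not say whether the libraries of a group came from separate embryos, so p-values measure only the spread between these libraries, which may be technical. A control with Cre and without floxed *Tcf7l1* was not analysed here, so an effect of the Cre allele cannot be told apart from that of the deletion. In 500 pooled cells, fewer cells of a type and less RNA per cell cannot be told apart either.

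The libraries held between 18216537 and 20397278 counts. Counts were scaled with edgeR's TMM factors to a common depth, called normalized counts here. The targeted *Tcf7l1* had 363 to 476 normalized counts in the wild type group and 33.0 to 72.9 in the mutant group, counted over the whole gene and not only the deleted exon, and *Shh*, the locus that carries Cre, had 411 to 542 and 183 to 223. *Xist* was at 0 in the wild type libraries and at 237 to 451 normalized counts in the mutant libraries, and *Ddx3y*, *Eif2s3y*, *Uty* and *Kdm5d* of chromosome Y were at 0 in the mutant libraries and at 269 or more in the wild type libraries, so that sex and genotype cannot be told apart. The 10 genes lie on autosomes. Of 8 markers of intestinal epithelium, all were detected, 7 had a log2 fold change below 0 (median -0.41) and 3 were called lower. These were *Cdh1* (-0.57), *Krt18* (-0.54) and *Cdx2* (-0.68), of which 1 call was left without wild type 2 or without mutant 2. Over all tested genes, 54.3% lay below 0 (median -0.04) and 5.83% were called lower. *Epcam*, used for the sort, had at least 51446 counts in each library and a log2 fold change of 0.25. Their part in the results was not tested. In all libraries *Hba-a1*, *Hbb-b1* and *Ptprc* of blood and *Ptf1a*, *Ins1* and *Pnlip* of pancreas were at 0. Summed mesenchyme markers lay between 1313 and 1553 normalized counts in the wild type and 1031 and 1502 in the mutant libraries, mostly from *Vim* (log2 fold change -0.46). *Acta2* of smooth muscle had 69.3 to 105 normalized counts in the wild type and 95.1, 171 and 488 in mutant 1, 2 and 3, with mutant 3 far above the rest. Between the groups *Acta2* had a log2 fold change of 1.52 (edgeR adjusted p = 0.0142) and *Col3a1* of -2.21 (0.0263). Enteric neural markers lay between 180 and 209 and between 161 and 233. Markers of gastric epithelium were present. Their summed normalized counts lay between 2477 and 2722 in the wild type group and between 486 and 699.6 in mutant libraries. Most of the wild type sum came from *Ctse*, *Vsig1*, *Nkx6-3* and *Cldn18*, while *Gkn1* had a log2 fold change of 0.004.

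The promoters of *Atoh1* and of the genes lower in the mutants are shown because lineage factors and TCF proteins bind DNA near their targets. RefSeq promoters (GRCm38.p6, 250 bases before to 50 after the start site) were on hand for 7 of the 10 genes, those other than *Ern2*, *Tff3* and *Zg16*, and each matched a single place in mm9, the build of the counts. They are given 5′ to 3′ on the strand of the gene, with capitals for matches to any of 6 motifs. For TCF and LEF proteins the letters ATCAAAG were searched, and as a weaker form of that site TTCAAAG. The E-box that ATOH1 can bind was searched as CAGCTG, and the ETS core preferred by SPDEF as CCGGAT. The site of FOXA proteins was searched as TGTTTAC and the TATA box as TATAAA. Both strands were read, and these motifs did not overlap in the windows shown.
*Atoh1*, chr6:64678869-64679168, plus strand: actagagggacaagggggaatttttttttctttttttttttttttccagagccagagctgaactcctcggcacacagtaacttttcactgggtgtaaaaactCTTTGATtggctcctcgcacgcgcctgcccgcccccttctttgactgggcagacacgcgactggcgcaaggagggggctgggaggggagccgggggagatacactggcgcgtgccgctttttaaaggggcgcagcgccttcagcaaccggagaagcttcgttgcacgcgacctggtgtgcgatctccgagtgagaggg
*Spdef*, chr17:27865847-27866146, minus strand: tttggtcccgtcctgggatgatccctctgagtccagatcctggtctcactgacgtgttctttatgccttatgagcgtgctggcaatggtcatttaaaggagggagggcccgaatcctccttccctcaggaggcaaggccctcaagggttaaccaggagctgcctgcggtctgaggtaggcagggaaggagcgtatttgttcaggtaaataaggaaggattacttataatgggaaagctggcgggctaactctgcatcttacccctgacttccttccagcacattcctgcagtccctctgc
*Agr2*, chr12:36719262-36719561, plus strand: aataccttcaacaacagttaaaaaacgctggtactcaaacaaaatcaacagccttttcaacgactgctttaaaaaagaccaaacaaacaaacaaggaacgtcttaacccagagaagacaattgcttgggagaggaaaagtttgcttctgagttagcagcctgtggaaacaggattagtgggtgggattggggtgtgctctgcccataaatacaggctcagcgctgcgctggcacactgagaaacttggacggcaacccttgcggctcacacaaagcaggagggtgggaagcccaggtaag
*Fcgbp*, chr7:28856005-28856304, plus strand: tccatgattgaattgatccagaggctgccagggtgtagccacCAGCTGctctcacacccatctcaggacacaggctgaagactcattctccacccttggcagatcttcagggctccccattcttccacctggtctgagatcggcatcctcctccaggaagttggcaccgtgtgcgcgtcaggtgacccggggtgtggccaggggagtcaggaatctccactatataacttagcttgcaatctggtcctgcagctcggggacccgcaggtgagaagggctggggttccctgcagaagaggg
*Tox3*, chr8:92872102-92872401, minus strand: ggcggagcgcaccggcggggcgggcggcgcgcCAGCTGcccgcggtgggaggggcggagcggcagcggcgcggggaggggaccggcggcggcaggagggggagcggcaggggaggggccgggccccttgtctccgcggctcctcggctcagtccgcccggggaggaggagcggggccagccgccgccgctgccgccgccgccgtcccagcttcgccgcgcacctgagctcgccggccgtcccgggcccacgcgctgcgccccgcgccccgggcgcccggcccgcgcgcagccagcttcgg
The *Atoh1* window held ATCAAAG, beginning 148 bases before the start site, a match found in 3.73% of 32851 mouse promoters of this length. CAGCTG was found once in *Fcgbp*, 208 bases before the start, and once in *Tox3*, 218 bases before it, and is present in 16.3% of all promoters. The windows of *Spdef* and *Agr2* held none of the 6 motifs. The *Tox3* window was 85.3% G and C, against 47.3% in *Agr2* and 53.3% in *Spdef*. These matches describe letters in a short window and show no binding.

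Of the 10 genes, 3 were called lower in the mutant libraries (*Agr2*, *Fcgbp* and *Tox3*) and 0 higher by edgeR's quasi-likelihood test. To be called, a gene had to have an adjusted p under 0.01 (Benjamini-Hochberg, over all 12501 genes tested), a log2 fold change of 0.5 or more in either direction, and no fewer than 50 normalized counts on average. The same rule called 5.83% of all tested genes lower and 2.78% higher, so that 32.3% of calls were higher, against 17.3% when libraries were scaled by their totals alone. Of the 10 genes, 7 passed the filter on low counts and were tested. *Ern2* passed it only through the wild type group and is left out of the counts that follow. Of the other 6 tested genes, 5 had a log2 fold change below 0, as had 54.3% of all tested genes. An adjusted p under 0.01 was found for 3 lower and 0 higher genes, against 7.61% and 7.32% of all tested genes. An unadjusted p under 0.05 was found for 4 lower and 0 higher genes, against 21.6% and 18.6% of all tested genes. DESeq2 called these 4 lower, *Spdef* being the added gene, and 0 higher, against 5.56% and 2.88% of its 14121 genes. The mutant values of the same 4 genes all lay below the wild type values, which held for 22.2% of all tested genes.

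**Figure D1:**
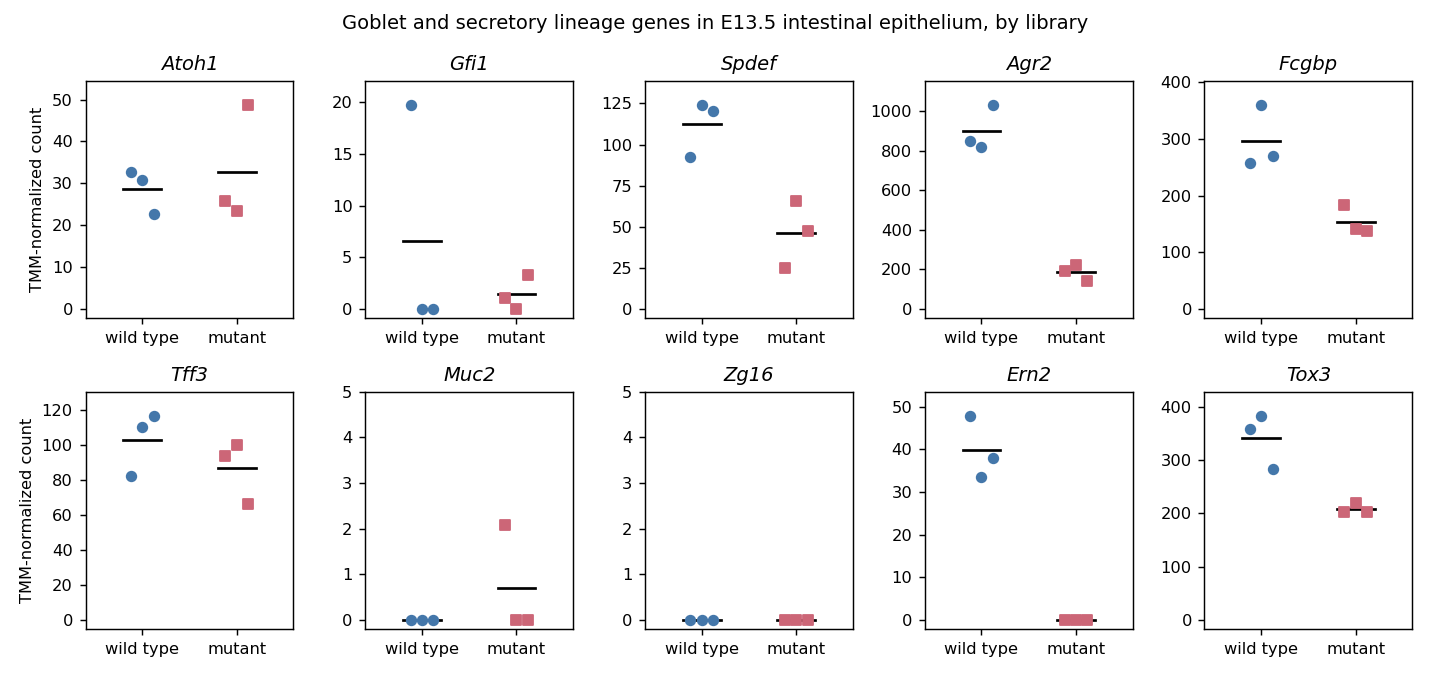
TMM-normalized counts of the 10 genes (vertical axis, a separate linear scale from 0 for each gene) in the 3 wild type libraries (blue circles) and the 3 mutant libraries (red squares), with black bars at the group means. The groups are apart for *Spdef*, *Agr2*, *Fcgbp*, *Ern2* and *Tox3*, overlap for *Atoh1*, *Gfi1* and *Tff3*, and hold almost no counts of *Muc2* and *Zg16*.

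*Atoh1* (ENSMUSG00000073043, chr6:64679140-64681227 of mm9, a gene of 1 exon) was detected in every library at a low level. Normalized counts of 32.8, 30.7 and 22.8 were found for wild type 1, 2 and 3, against 25.8, 23.4 and 48.6 for mutant 1, 2 and 3. The groups overlapped, with mutant 3 above all other libraries. The difference was 0.18 on the log2 scale (SE 0.50, edgeR adjusted p = 0.82), with a 95% interval from -0.88 to 1.23, an interval that includes the fitted value of *Tox3*. Without mutant 3 its sign changed, to -0.22.

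*Gfi1* (ENSMUSG00000029275, chr5:108145674-108155056), a zinc finger repressor of the enteroendocrine fate in secretory progenitors, had 21, 0 and 0 counts in the wild type and 1, 0 and 3 in the mutant libraries. All wild type counts came from wild type 1, and the gene did not reach the minimum counts of the main test. With no such minimum its log2 fold change was -2.10 (SE 1.63, edgeR adjusted p = 0.406), and with DESeq2 it was -2.16 (SE 2.09, adjusted p = 0.502). Exons of *A430072P03Rik*, read from the other strand, cover 3.11% of it, and the sources do not state whether reads were counted by strand.

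*Spdef* (ENSMUSG00000024215, chr17:27851297-27865896) had 92.7, 123.8 and 120.5 normalized counts in the wild type and 24.8, 65.9 and 47.5 in the mutant libraries. Every mutant library lay below every wild type library, and the spread among mutants was wide, from 24.8 to 65.9. The means were 112 ± 17.1 and 46.1 ± 20.6 (SD, n = 3; log2 fold change -1.29, SE 0.35, edgeR adjusted p = 0.0133), so that *Spdef* missed the threshold of 0.01. It passed without mutant 2, the highest of the mutant libraries (adjusted p = 0.00868). It also passed with DESeq2 (0.00932). In the other fits that left out 1 library the adjusted p lay between 0.0242 and 0.0539.

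*Tox3* (ENSMUSG00000043668, chr8:92771013-92872151) encodes an HMG-box protein that the study links to enterochromaffin cells, and it fell 1.64-fold. Its normalized counts were 359, 383 and 283 in the wild type and 203, 219 and 202 in the mutant libraries. The mutant libraries lay close together and all below the lowest wild type library. The log2 fold change was -0.71 (SE 0.18, edgeR adjusted p = 0.00703). The call was lost at adjusted p values of 0.0355 without wild type 1, 0.0389 without wild type 2, 0.0278 without mutant 1, 0.0195 without mutant 2 and 0.0266 without mutant 3, and it was kept without wild type 3 (0.00243). Of its family, named here outside the rule for naming genes, *Tox* had a log2 fold change of -0.54 (adjusted p = 0.0307), *Tox2* of -0.59 (0.113) and *Tox4* of -0.21 (0.155).

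*Fcgbp* (ENSMUSG00000047730, chr7:28856255-28905881), whose large protein is bound into the mucus gel, was the single mucus protein gene called. Its normalized counts were 257, 359 and 270.4 in the wild type and 183, 141 and 138 in the mutant libraries. The highest mutant library lay below the lowest wild type library. *Fcgbp* fell 1.92-fold, from 296 ± 55.4 to 154 ± 25 (SD, n = 3; log2 fold change -0.94, SE 0.20, edgeR adjusted p = 0.00318). The call was lost without wild type 2 (0.0247), without mutant 2 (0.0167) and without mutant 3 (0.0164). Its transcript is 86.2% identical to that of *9530053A07Rik* over 74.3% of its length, so reads could be split between them, but that gene held 53 counts in all wild type and 32 in all mutant libraries. Exons of *Gm10935*, read from the other strand, cover 6.93% of its exon bases.

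*Tff3* (ENSMUSG00000024029, chr17:31262251-31266591) encodes the trefoil peptide of intestinal goblet cells. It had 82.4, 111 and 117 normalized counts in the wild type and 94.1, 99.9 and 66.3 in the mutant libraries. The groups overlapped, and the log2 fold change was -0.25 (SE 0.28, 95% interval from -0.85 to 0.35, edgeR adjusted p = 0.546). Its neighbour *Tff2* (chr17:31277994-31281227), a trefoil peptide of gastric mucous cells, had 46.8 to 72.6 normalized counts in the wild type and 7.24 to 23.4 in the mutant libraries, with a log2 fold change of -1.74 that missed the threshold (adjusted p = 0.0178).

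The other mucus genes, *Muc2* and *Zg16*, were at or near 0. *Muc2* (ENSMUSG00000025515, chr7:148876268-148940595) had 0 counts in 5 libraries and 2 counts in mutant 1, and *Zg16* (ENSMUSG00000049350, chr7:134193670-134195491), which encodes a lectin of the mucus layer, had 0 counts in all 6. At this depth a count of 0 over the 3 libraries of a group allows up to 0.0481 CPM (a gene's share of a library's counts, scaled to a fixed total) in the wild type and 0.0547 in the mutant group, counting error only. *Muc5ac* and *Muc5b*, which lie beside *Muc2* on chromosome 7, had 11 and 6 counts in all wild type libraries and 0 in the mutant libraries, and *Muc6* on its other side was at 0 throughout.

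*Agr2* (ENSMUSG00000020581, chr12:36719494-36730674) had the largest fitted fold change of the called genes among the 10. Its normalized counts were 850.1, 819 and 1028 in the wild type and 192, 224 and 141 in the mutant libraries. The groups were far apart, with the highest mutant library, at 224, far below the lowest wild type library, at 819. *Agr2* fell 4.83-fold, from 899 ± 113 to 186 ± 41.8 (SD, n = 3; log2 fold change -2.27, SE 0.17, edgeR adjusted p = 1.37e-07). It passed the adjusted p and the fold in the 14 alternatives run gene by gene (other tests, scalings, filters and left-out libraries, with the minimum of 50 normalized counts kept). It was not called with a minimum of 50 RPKM, as RPKM was computed here, which its level did not reach. The study states a minimum of 50 RPKM and names *Agr2* among its lower genes, so its RPKM may differ from the one used here. Its log2 fold change lay between -2.43 and -2.11 when 1 library was left out. *Agr2* is also made in gastric mucous cells. The summed gastric markers moved with it, from 2477 to 2722 normalized counts in the wild type to 486 to 699.6 in the mutant libraries. Most of the wild type sum came from *Ctse*, *Vsig1*, *Nkx6-3* and *Cldn18*. The study names *Nkx6-3* among the transcription factors of enteroendocrine differentiation. Of 10 tested gastric markers, 6 were lower at an edgeR adjusted p under 0.05, against 15.1% of all tested genes. *Gkn1* (log2 fold change 0.004), *Atp4a* (-0.26), *Pgc* (-0.51) and *Anxa10* (-1.12) did not pass. *Sox2*, which defines the embryonic foregut, had 12, 7 and 11 counts in the wild type and 0 in the mutant libraries. The part of gastric cells in the *Agr2* result was not tested. The paralogue *Agr3*, next to it on chromosome 12, had 8 counts in all wild type and 2 in all mutant libraries.

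*Ern2* (ENSMUSG00000030866, chr7:129313407-129329730) had 51, 36 and 40 counts in the wild type libraries and 0 counts in each mutant library. The groups did not overlap. Set against a floor of 3 counts over the mutant group, the mutant level was lower by at least 37.3-fold, and this bound lay between 24.4 and 40.2 when 1 library was left out. Its edgeR adjusted p was 0.00015, but its mean over the 6 libraries, 19.9 normalized counts, was under the minimum of 50, and it passed the filter on low counts only through the wild type group. The widely expressed paralogue *Ern1* (IRE1-alpha) had 2, 18 and 43 counts in the wild type and 15, 7 and 30 in the mutant libraries, with a log2 fold change of -0.09 (adjusted p = 0.951).

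**Figure D2:**
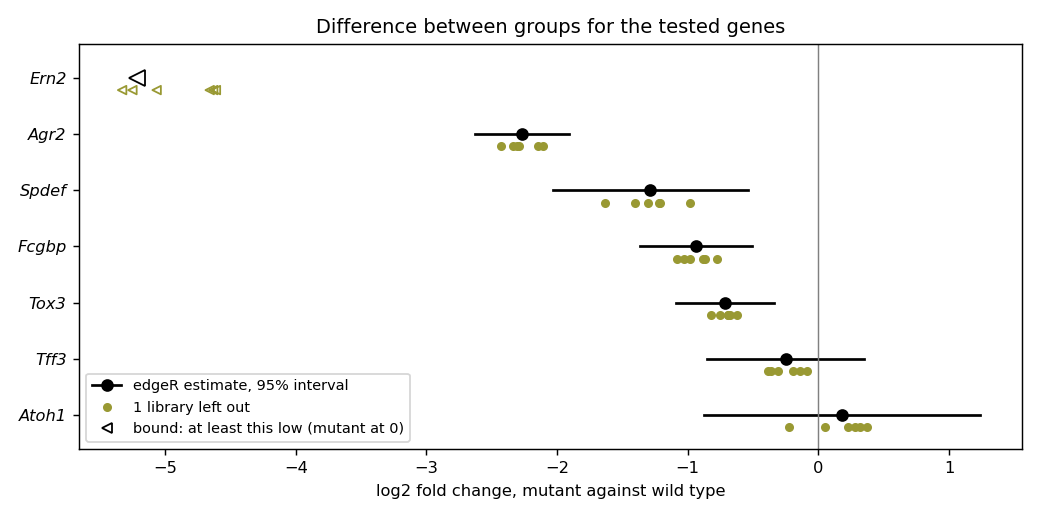
Log2 fold change, mutant against wild type, of the 7 tested genes (edgeR), with 95% intervals and n = 3 libraries per group, and the values obtained when 1 library was left out. *Agr2* lies at -2.27, *Spdef* at -1.29, *Fcgbp* at -0.94 and *Tox3* at -0.71, while the intervals of *Tff3* and *Atoh1* cross 0 and *Ern2*, at 0 in the mutants, is shown by its bound.

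Levels were compared between genes only per length, as RPKM, the TMM-scaled counts divided by exon length and depth, computed here with mm9 exon lengths. In the wild type libraries *Agr2* was highest, at 35.7 ± 4.47 RPKM (SD, n = 3), followed by *Tff3* at 10.7 ± 1.91, *Tox3* at 5.49 ± 0.837, *Spdef* at 2.63 ± 0.401 and *Fcgbp* at 1.44 ± 0.271. *Atoh1* (0.559 to 0.805 RPKM) and *Ern2* (0.578 to 0.824) came last of the 7 tested genes and overlapped, with *Gfi1*, *Muc2* and *Zg16* below them, while the ranges of the other neighbours among the 7 did not overlap. The median tested gene was at 6.52 RPKM in the wild type, so that *Agr2* stood at the percentile 80.6 and *Spdef* at 33.5. In the mutant libraries *Agr2*, at 7.39 ± 1.66 RPKM and the percentile 53.9, overlapped with *Tff3* at 9.03 ± 1.87. *Spdef*, *Atoh1* and *Fcgbp* overlapped there too.

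**Figure D3:**
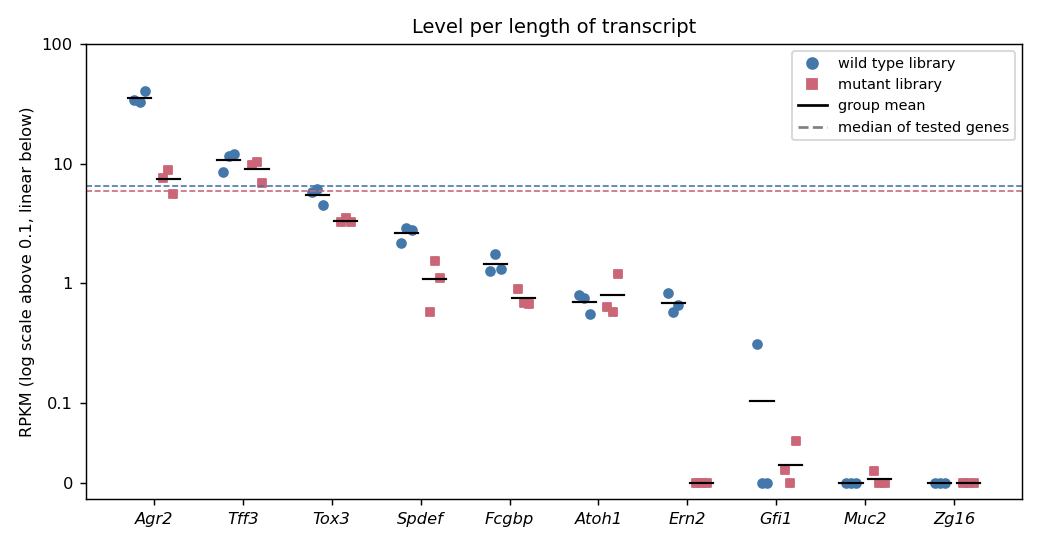
RPKM of the 10 genes (vertical axis, logarithmic above 0.1 and linear below) in the 3 wild type and the 3 mutant libraries, with black bars at the group means and dashed lines at the median of all tested genes in each group. *Agr2* stands above the others in the wild type libraries and at the level of *Tff3* in the mutant libraries.

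Other genes of the pathway were counted by list. Over all tested genes, edgeR called 5.83% lower and 2.78% higher, and DESeq2 called 5.56% and 2.88% of its genes. At an unadjusted p under 0.05 in edgeR, 21.6% of all tested genes were lower and 18.6% higher. The counts of every list below stand against these shares. Of 12 tested secretory lineage transcription factors, 2 were called lower and 0 higher by edgeR, with a median log2 fold change of -0.41 against -0.04 over all tested genes. At an unadjusted p under 0.05, 5 were lower and 1 higher, and DESeq2 called 2 lower and 0 higher. *Foxa2*, a forkhead factor that acts in goblet and enteroendocrine cells, fell 7.69-fold (286 ± 14.6 to 37.1 ± 17.7 normalized counts, adjusted p = 3.02e-06). *Sox9*, needed for Paneth cells, fell 1.64-fold (adjusted p = 8.41e-05). *Foxa1* had a log2 fold change of -0.44, under the fold threshold.

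In the Notch pathway, which restrains *Atoh1*, 0 of 14 tested genes were called lower and 1 higher by edgeR and by DESeq2, and at an unadjusted p under 0.05 these counts were 1 and 1, where 21.6% of all tested genes were lower and 18.6% higher. *Rbpj*, the DNA-binding partner of Notch, rose from 206 ± 45.2 to 398 ± 39.3 normalized counts (adjusted p = 0.00174), a call lost without mutant 3 (0.0108). The target *Hes1* had a log2 fold change of -0.45 (adjusted p = 0.0013), under the fold threshold, and was called lower when libraries were scaled by their totals alone, with a length correction and without wild type 2. The ligand *Dll1* had a log2 fold change of -0.58 (adjusted p = 0.242).

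Of the 5 other mucus genes tested, 1 was called lower and 2 higher, against 5.83% and 2.78% of all tested genes. The membrane mucin *Muc1* had 343.6, 317 and 347 normalized counts in the wild type and 25.8, 33.0 and 70.7 in the mutant libraries, a fall of 7.81-fold (adjusted p = 3.27e-06). The membrane mucin *Muc13* rose from 2300 ± 202 to 3973 ± 233 (adjusted p = 6.18e-06), and *Dmbt1*, a secreted scavenger receptor protein, rose by 0.74 on the log2 scale (0.000671). Of 10 tested genes of mucin O-glycosylation, 2 were called lower and 0 higher, against the same shares. *Gcnt3*, which branches mucin glycans, fell by 2.91 on the log2 scale (adjusted p = 1.42e-05), and *Fut2*, a fucosyltransferase, fell by 1.23 (0.00738), a call lost whichever library was left out (adjusted p from 0.0109 to 0.0334).

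Of 25 tested genes of ER folding and stress, 0 were called lower and 3 higher by edgeR and by DESeq2. Of all tested genes, edgeR called 5.83% lower and 2.78% higher. At an unadjusted p under 0.05, 3 of the 25 were lower and 6 higher, against 21.6% and 18.6% of all tested genes. The median log2 fold change was -0.02, and 0.01 with DESeq2. *Edem1*, which sends misfolded glycoproteins to degradation, rose from 420 to 1445 normalized counts (log2 fold change 1.78, adjusted p = 2.82e-08). *Herpud1* rose by 0.84 (1.19e-05) and *Dnajb9* by 0.53 (0.00657), the latter lost in 5 of the 6 fits that left out 1 library (adjusted p from 0.0141 to 0.0414) and when libraries were scaled by their totals alone (0.021). *Xbp1*, whose mRNA is spliced by IRE1, had a log2 fold change of 0.06 (adjusted p = 0.596) and the chaperone *Hspa5* of 0.22 (0.0133).

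Among markers of mature cells, 12 goblet cell markers other than the 10 genes were in the count tables, and 4 of them were tested. Of these 4, 0 were called in either direction by edgeR or DESeq2 or had an unadjusted p under 0.05. Sums over the 12 lay between 129 and 180 normalized counts in the wild type and between 123 and 142 in the mutant libraries. Of Paneth and tuft cell markers, 4 and 3 were tested and 0 were called by edgeR, while DESeq2 called 1 Paneth marker higher. At an unadjusted p under 0.05, 2 Paneth markers were higher, and 0 tuft markers differed. The Paneth marker *Lyz1* had a log2 fold change of 2.08 (edgeR adjusted p = 0.0152), and all 4 tested Paneth markers were above 0. Of the 10 listed Paneth markers, the others were too low to test. Among those, *Mmp7* went the other way, with 11, 11 and 8 counts in the wild type and 0 in each mutant library. Of 7 tested enteroendocrine markers, 2 were called lower, *Rfx6* (log2 fold change -1.58, edgeR adjusted p = 1.49e-05) and *Cpe* (-0.84, 0.00143, lost without wild type 1 at 0.0133). The markers *Scg5* (0.70) and *Sct* (0.21) lay above 0 and were not called. *Neurod1* had 106, 121 and 60 counts in the wild type and 0 in the mutant libraries, at least 84.2-fold lower. Like *Ern2*, *Neurod1* passed the filter on low counts only through the wild type group. Its mean of 44.8 normalized counts was under the minimum, so it was not called. Of 10 tested gastric markers, 4 were called lower (*Ctse*, *Cldn18*, *Vsig1* and *Nkx6-3*), against 5.83% of all tested genes, with a median of -1.79. *Nkx6-3* is counted as an enteroendocrine factor in the study. The part of gastric cells in the list results was not tested.

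**Figure D4:**
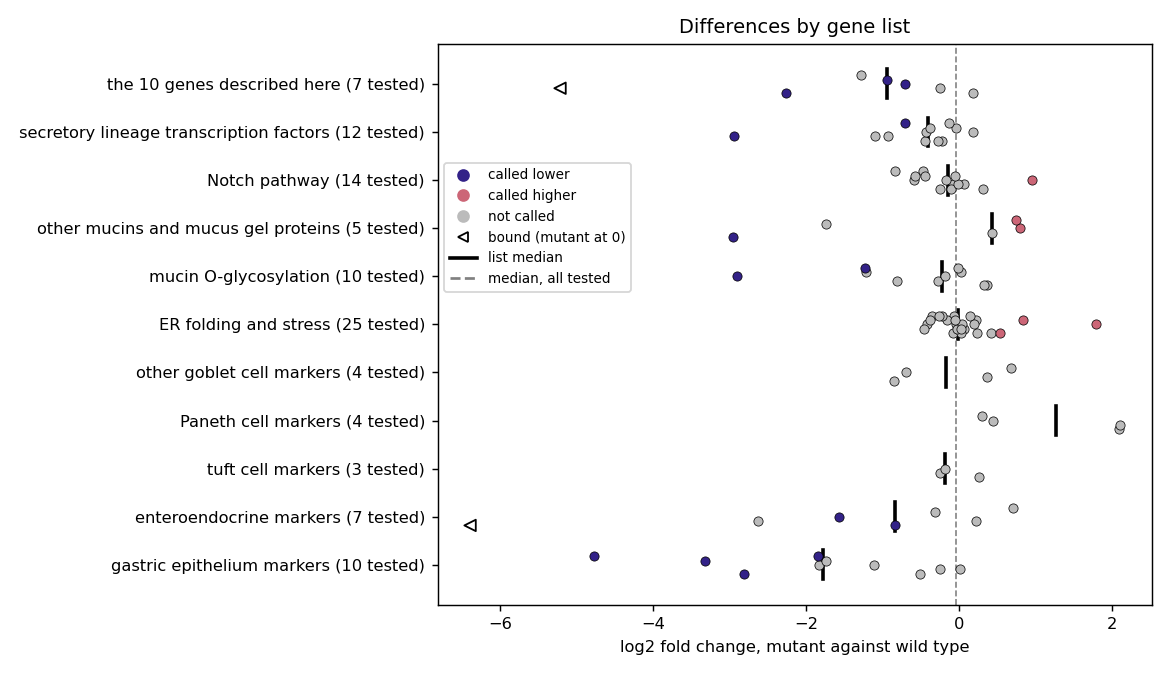
Log2 fold changes, mutant against wild type, of the tested genes of each list, with coloured points for called genes, open triangles for bounds, black bars at the list medians and a dashed line at the median of all tested genes. The gastric markers have the lowest median, -1.79, and the genes of ER folding and stress lie around a median of -0.02, close to 0.

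The 5 genes most like *Agr2* by Pearson's r of log2 CPM over the 6 libraries, among 10561 genes, were *St8sia3* (r = 0.9989), *Dpcr1* (0.9987), *Rpl29* (0.9967), *Sult1d1* (0.9966) and *Slc15a2* (0.9964). The points share the step between the 2 groups, and r is given as a description. *Dpcr1*, a mucin-like gene, fell from 169 to 8.14 normalized counts, and *Rpl29*, a ribosomal protein gene with many near-identical copies, is uncertain.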

How the data were processed

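Polyadenylated RNA of 500 sorted cells per library was sequenced from 3 wild type and 3 mutant samples. The authors aligned reads to mm9 with STAR 2.5.2b and deposited raw counts per gene from featureCounts 1.5.1, per the labels and the submitters' processing notes. Whether reads were counted by strand is not given in the sources used here.

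Groups were taken from the genotype label. Genes passing filterByExpr (12501 of 23366) were tested with edgeR 4.0.16 (R 4.3.3), using TMM factors and the quasi-likelihood F-test, over all 6 libraries with genotype as the single term and Benjamini-Hochberg adjustment. Calls were made at an adjusted p under 0.01, a log2 fold change of 0.5 or more in size and no fewer than 50 normalized counts on average. The minimum of 50 RPKM that the study states was run as an alternative, with RPKM computed here, which may differ from the study's values. Other alternatives were DESeq2 1.42.0, RLE and library size scaling, other filters and thresholds, a length correction, a block for replicate number, and leaving out each library. Gene positions, lengths and overlaps came from the mm9 annotation, and near copies were searched with BLAST+ 2.17.0. Promoters were matched to mm9 exactly.

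The 10 genes, the gene lists and the tests were chosen with earlier results of these data known. Named genes are all 10, the checks of genotype and sex, genes of the lists, and the 5 genes with the highest correlation with *Agr2* among those with 50 or more normalized counts on average. The *Tox* family, the near copy of *Fcgbp* and the genes overlapping *Gfi1* and *Fcgbp* were added outside this rule. Intervals of log2 fold changes come from edgeR and hold the spread between libraries, while floors for counts of 0 cover counting error only, since reads carried no molecular identifiers. Within groups, libraries differed by more than sampling noise (chi-square per gene 6.42 to 18.7).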

Additional observations from a re-analysis of the deposited data

How the results depend on the processing

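*Agr2* passed the adjusted p and the fold in all 14 alternatives run gene by gene, which kept the minimum of 50 normalized counts. It lost its call with an RPKM, as computed here, of at least 50. Of the 10 genes, 3 were called lower, and 4 with DESeq2, with no filter, with a filter at a mean count of 50, with an adjusted p under 0.05, with a length correction and with no minimum mean count, the last chosen after seeing the data. With a minimum log2 fold change of 1 the count was 1, with an RPKM of at least 50 it was 0, and with 1 library left out it lay between 1 and 3, being 1 without wild type 2 and without mutant 3. The count called higher was 0 in every setting run. *Atoh1* changed sign without mutant 3, to -0.22, and reached 0.37 without mutant 2. Over all genes, 729 were called lower, against 1178 at an adjusted p under 0.05, 284 at a minimum log2 fold change of 1, 28 at an RPKM of at least 50 and 405 to 867 with 1 library left out, the lowest 405 (wild type 1 left out), 406 (wild type 2) and 463 (mutant 2). For the 348 genes called higher these counts were 200 when scaled by totals alone, 902 with no minimum fold, 85 at a minimum of 1, 106 at an RPKM of at least 50 and 260 to 516 with 1 library left out. Scaling by totals alone moved the median of all genes from -0.04 to -0.15 (log2). The cause of these shifts was not tested, beyond the changed thresholds and sample numbers.

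Deviations from the group mean had correlations near 0 between libraries with the same number (0.00971, -0.0449 and -0.0179). Between libraries with different numbers they lay from -0.025 to 0.042. With 3 libraries per group, these values cannot show whether the numbers pair the libraries. With the replicate block, 691 genes were called lower and 339 higher, and 3 of the 10 genes were called lower. *Tox3* missed the threshold there (adjusted p = 0.0107) and *Spdef* passed it (0.00808). *Gfi1*, *Muc2* and *Zg16* were below the low-count filter, and with no filter *Muc2* had a log2 fold change of 2.73 (SE 2.36, edgeR adjusted p = 0.46).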
